A study of Cucumis sativus and Manihot esculenta and Brachypodium distachyon with 34 samples.

Results

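Flowering in temperate grasses is timed by a small set of genes that read winter cold (vernalization) and day length (photoperiod). The 5 of them described here in *Brachypodium distachyon* are *VRN1* (Bradi1g08340), *VRN2* (Bradi3g10010), *FT1* (Bradi1g48830, also called *VRN3*), *PHYC* (Bradi1g08400) and *PPD1* (Bradi1g16490). They were picked for their known roles in flowering and found by gene identifier, with no threshold on a measured value, and all 5 had a row among the 31694 genes listed for the leaf transcriptome of this grass. Gene levels were deposited in FPKM, fragments scaled by transcript length and by the mapped fragments of the library, so levels of different genes can be set side by side.

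The series compares DNA methylation in leaves of many flowering plants, and RNA-seq was added for a few of them. Gene expression in *B. distachyon* was measured in 1 library, made from total RNA of flash-frozen leaves of the accession Bd21. The labels and the methods name different TruSeq kits for it, and the kit in the methods is for mRNA. With 1 library there is no replicate error, and no test was possible; every difference below is a description of that library. Plant age, day length, hour of harvest and any cold treatment are not given in the sources used here, although the genes described respond to them. The library holds no group to compare with, and in bulk leaf tissue a gene active in fewer cells cannot be told apart from one with less RNA per cell. Leaf identity was not checked against marker genes, because no gene names for *B. distachyon* were used here beyond those of the 5 genes. For the same reason no sequences of these genes are shown.

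As background, the wiring of these genes is best known from wheat and barley. *VRN1* encodes a MADS-box transcription factor of the APETALA1/FRUITFULL kind, which rises during prolonged cold and promotes the change to flowering. *VRN2* encodes a CCT-domain protein that represses flowering and holds *FT1* down in long days before winter. *FT1* encodes the florigen, a small mobile protein of the phosphatidylethanolamine-binding family that is made in leaves and moves to the shoot apex. *PHYC* encodes phytochrome C, a red and far-red light receptor needed for flowering in long days in *B. distachyon* and wheat, and *PPD1* encodes a pseudo-response regulator that promotes *FT1* in long days.

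Levels of the 5 genes in the leaf were spread widely. *PPD1*, *PHYC* and *VRN2*, a photoperiod gene, a photoreceptor and a repressor, were at 8.38 FPKM or above. *FT1* and *VRN1*, the florigen and the cold-induced activator of flowering, were at 0.120 FPKM or below. No member lay between these levels, a stretch that held 40.9% of all listed genes. Levels of at least 1 FPKM were found in 3 of 5 members, against 51.8% of all listed genes. With so few members, neither the gap nor that share is a result about them as a set. A gap this wide can arise among any 5 genes.

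**Figure D1:**
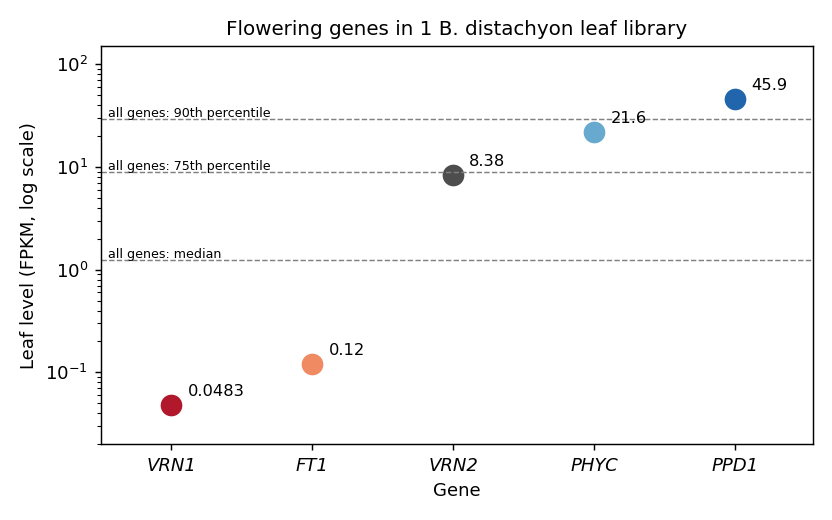
Leaf level of each flowering gene in FPKM, on a log axis, with 1 point per gene from 1 library and no error bars. Dashed lines mark the median, 75th and 90th percentiles of all 31694 listed genes. *PPD1* (45.9 FPKM) lies above the 90th percentile, and *FT1* (0.120 FPKM) and *VRN1* (0.0483 FPKM) lie below the median.

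*PPD1*, the photoperiod gene, had the highest level of the 5, at 45.9 FPKM. It ranked 1993 from the top, above 93.7% of the listed genes, and stood at 37.3 times the median of all genes, which was 1.23 FPKM. *PHYC*, the photoreceptor, was listed at 21.6 FPKM and ranked 4079, above 87.1% of genes. The level of *PPD1* was 2.12 times that of *PHYC*, and 2085 genes lay between them. Both therefore belong to the upper range of the leaf library, among the 23.1% of genes at 10 FPKM or more. The row of *PPD1* is named by its transcript 2, and its value carries 7 significant digits, where a row usually has at most 6. Such longer values were found in 4.53% of rows, in 13.8% of rows named by a transcript other than the first and in 2.76% of rows named by the first. How the deposited table joined the transcripts of a gene is not stated, and whether the level of *PPD1* stands for more than 1 transcript was not tested.

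*VRN2*, the repressor, was listed at 8.38 FPKM. It ranked 8187 from the top, above 74.2% of genes, and lay just under the 75th percentile of 8.87 FPKM. *PHYC* was at 2.58 times its level, and *VRN2* in turn was at 69.7 times the level of *FT1* and 173 times that of *VRN1*. RNA of the repressor was thus present in this library. *FT1*, the gene that *VRN2* holds down in wheat and barley, was near the lower end of the scale. *PPD1*, described above as promoting *FT1* in long days, was also present, at 5.48 times the level of *VRN2*. A relation between the levels of these genes was not tested.

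*FT1*, the leaf-made florigen, was listed at 0.120 FPKM, 0.0976 times the median of all genes. It ranked 21163 from the top. Genes listed at exactly 0 make up 28.5% of the table, and of the 22676 genes above 0, 6.67% were lower than *FT1*. *VRN1* was lower still, at 0.0483 FPKM, and ranked 22178 from the top. Of the genes above 0, 498 (2.20%) were lower than *VRN1*, and the lowest value above 0 in the library was 0.00263 FPKM. *VRN1* was the only member below 0.1 FPKM, a level reached by 4 of 5 members and by 67.5% of all genes.

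The levels of *FT1* and *VRN1* differ by a factor of 2.49 in FPKM, but by 0.10 on the log2(FPKM + 1) scale, which compresses low values. The study lists the total reads of the library and the share mapped, but the table gives neither fragment counts nor transcript lengths. The number of fragments behind each of these low values was therefore not computed. Values this near 0 can rest on very few fragments. The order of *FT1* and *VRN1*, their ranks and every fold over them are therefore uncertain, with no replicate check. On the same scale *PPD1* exceeded *PHYC* by 1.05, *PHYC* exceeded *VRN2* by 1.27 and *VRN2* exceeded *FT1* by 3.07. The step from *VRN2* to *FT1* was the widest between neighbours in the order of the 5 genes. In linear terms the highest member, *PPD1*, was at 951 times the level of the lowest, *VRN1*. Together the 5 genes made up 0.0112% of the summed FPKM of the library.

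**Figure D2:**
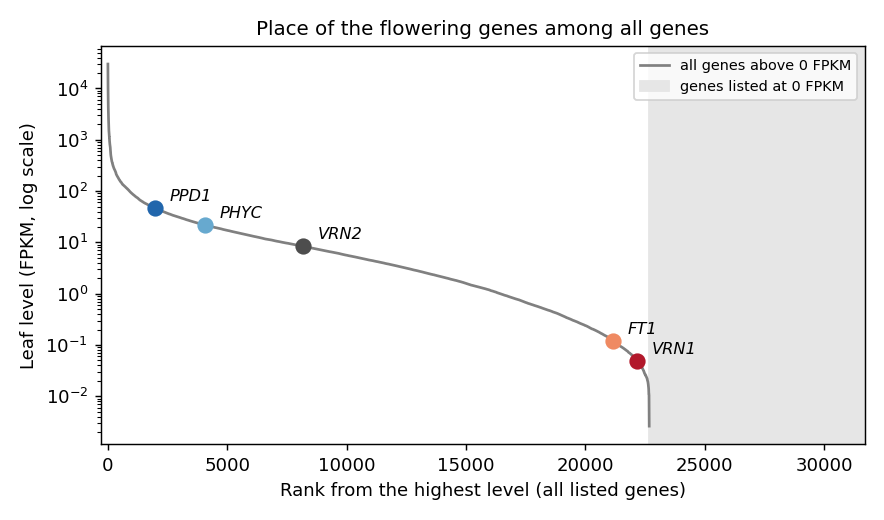
Levels of all genes above 0 FPKM (grey line, log axis) against their rank from the highest, with the 5 flowering genes as points and genes listed at 0 FPKM as the shaded range. *PPD1*, *PHYC* and *VRN2* lie at ranks 1993, 4079 and 8187, and *FT1* and *VRN1* lie at ranks 21163 and 22178, near the end of the line.

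Ranks within the own chromosome were close to the genome-wide ones. The identifiers place 4 of 5 members on chromosome 1 and *VRN2* on chromosome 3. On chromosome 1, with 9196 listed genes, *PPD1* was above 92.9% of genes, *PHYC* above 85.8%, *FT1* above 31.9% and *VRN1* above 29.0%. On chromosome 3, with 6971 listed genes, *VRN2* was above 72.8%. The median level was 1.58 FPKM on chromosome 1 and 1.40 FPKM on chromosome 3.

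The methylation class of a gene, as the authors assigned it from the leaf methylome of Bd21, was at hand for 3 members. The authors counted methylated cytosines in coding sequences and used a binomial test. Genes methylated at CG sites alone are gene body methylated (gbM), those also methylated at CHG or CHH sites (H is A, C or T) form the mCHG and mCHH classes, and the rest are unmethylated (UM). *PHYC* and *PPD1* were gbM genes and *VRN1* was a UM gene. The classes of *FT1* and *VRN2* were not analysed here, as the part of the class list used here held 1999 genes, of which 1987 lie on chromosome 1, and neither gene is among them. Of the genes in that part of the list, 28.3% were gbM and 62.8% were UM, so these are the common classes.

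Within its own class, *PPD1* was higher than 511 of 566 gbM genes (90.3%) and *PHYC* was higher than 433 of them (76.5%). Both were above the upper quartile of gbM genes, 20.4 FPKM, with *PPD1* at 6.55 times and *PHYC* at 3.09 times the gbM median of 7.01 FPKM. *VRN1* was higher than 346 of 1256 UM genes (27.5%), of which 329 were listed at 0, so it ranked among the lowest UM genes with a value above 0. The UM median was 1.67 FPKM. Set against the gbM genes instead, *VRN1* was higher than 11.7% of them. Levels varied widely within the classes: 11.1% of gbM genes were listed at 0, and 24.2% of UM genes were at 10 FPKM or more. *VRN1*, at 0.0483 FPKM, lay between the UM quartiles of 0 and 9.59 FPKM only because the lower one was 0. Of the UM genes above 0, it was higher than 1.83%. *PHYC* lay just past the upper quartile of gbM genes. The list covers only part of the genome, nearly all of it on chromosome 1, the genes are not replicates, and no test of the classes was run.

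**Figure D3:**
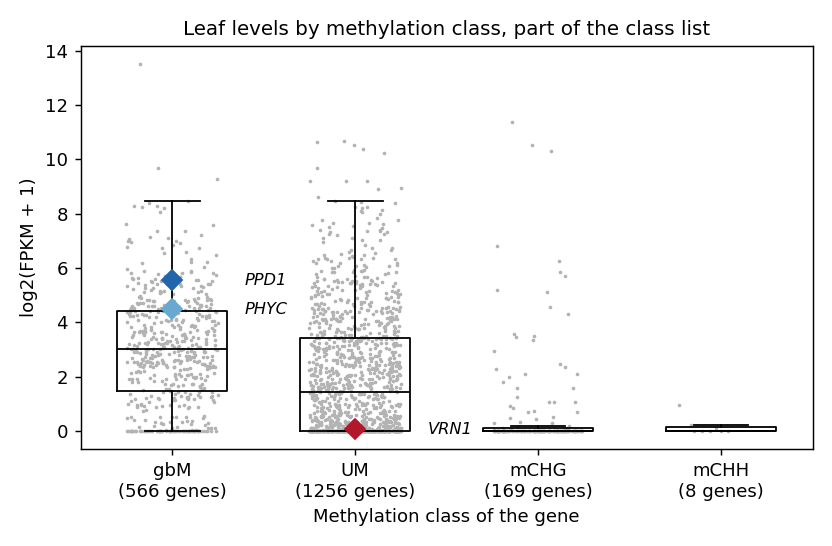
Leaf level as log2(FPKM + 1) by methylation class, for the 1999 genes of the class list used here (grey points, 1 per gene; boxes give median and quartiles, whiskers reach the last gene within 1.5 box heights). Diamonds mark *PHYC* (4.50) and *PPD1* (5.55) in the gbM class and *VRN1* (0.07) in the UM class.

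The genes next to each member, in the order of their identifiers along the chromosome, were read from the same table. *VRN1* and *PHYC* are neighbours on chromosome 1, with 5 listed genes between them. All 5 were higher than *VRN1*, at 3.29 to 21.1 FPKM with a median of 13.7 FPKM, and all 5 were lower than *PHYC*. The first of them, Bradi1g08350, was at 17.6 FPKM, 365 times the level of *VRN1* beside it, a fold that divides by a value near 0. On the other side of *VRN1*, the nearest genes Bradi1g08333 and Bradi1g08326 were listed at 0, and Bradi1g08310, the fourth gene away, was at 113 FPKM. *VRN1* thus lay at the edge of a short run of low genes inside a stretch that was otherwise expressed. Among its 10 nearest genes, 8 were at 1 FPKM or more, against 54.2% of the listed genes on chromosome 1. Of these 10 genes, 5 were UM, 4 were gbM and 1, the adjacent Bradi1g08333, was an mCHG gene.

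Around *PHYC*, 9 of the 10 nearest genes were at 1 FPKM or more and none was listed at 0. The genes between *VRN1* and *PHYC* count in the windows of both, so these windows are not separate observations. *PHYC* was lower than 2 of them, Bradi1g08410 (46.2 FPKM, the adjacent gene) and Bradi1g08440 (34.3 FPKM). The lowest was Bradi1g08435, at 0.418 FPKM. Of its 10 nearest genes 7 were UM and 3 were gbM, shares close to those of the class list as a whole. *PPD1* was second among its 11 genes. The gene above it, Bradi1g16510, had 589 FPKM, 12.8 times the level of *PPD1*, and Bradi1g16500 between them had 22.7 FPKM. Bradi1g16355 and Bradi1g16460 were listed at 0, and Bradi1g16460 was a gbM gene like *PPD1* itself. Here 8 of the 10 nearest genes were UM and 2 were gbM.

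*VRN2* and the gene on each side of it stood out from a short quiet stretch of chromosome 3. Of its 10 nearest genes 6 were listed at 0, the median was 0, and only the genes on either side of it were at 1 FPKM or more. Bradi3g10000 had 8.43 FPKM, 1.01 times the 8.38 FPKM of *VRN2*, and Bradi3g10020 had 16.7 FPKM. Whether these adjacent genes share sequence, and thus reads, with *VRN2* was not tested. With 20 genes on each side, 26 of 40 were lower than *VRN2*, against 8 of 10 among the nearest. In that wider window 17 genes were at 1 FPKM or more, up to 1465 FPKM, so the quiet did not reach across it.

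*FT1* was in the middle of its surroundings, with 5 of its 10 nearest genes listed at 0 and 5 higher than it. Its adjacent genes were both higher, Bradi1g48826 at 14.9 FPKM and Bradi1g48836 at 2.40 FPKM. The highest was Bradi1g48870, at 42.2 FPKM. The median of the 10 genes was 0.421 FPKM.

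**Figure D4:**
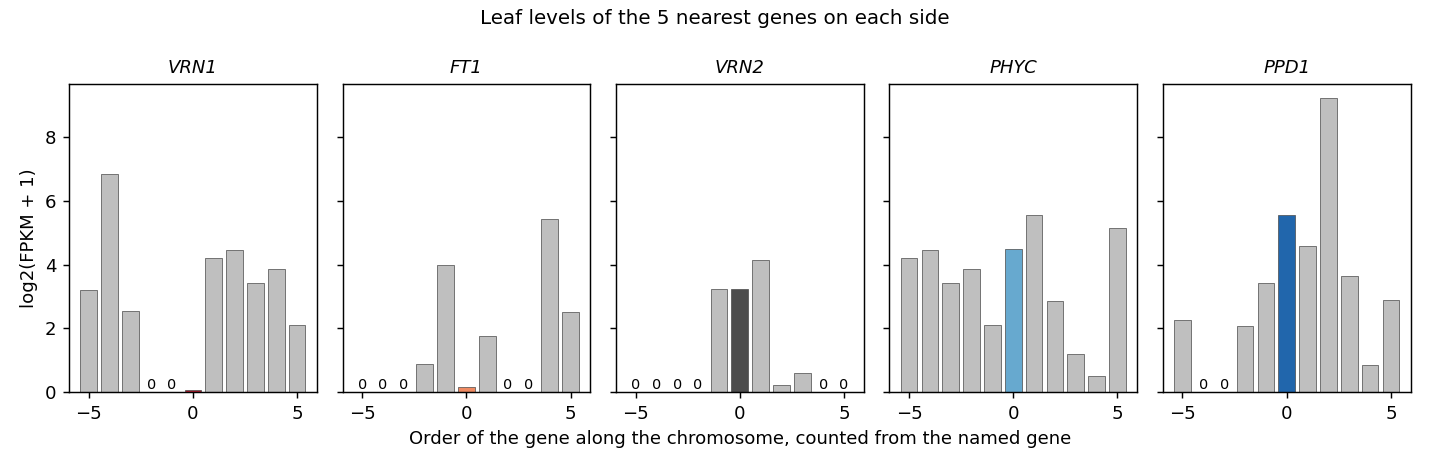
Leaf level as log2(FPKM + 1) of each flowering gene (coloured bar at 0) and the 5 nearest listed genes on each side (grey bars, in identifier order; "0" marks a gene listed at 0 FPKM). *VRN1* (0.07) and *FT1* (0.16) are near 0, with 2 and 5 of their 10 nearest genes listed at 0, and *VRN2* is at 3.23, with 6 of 10 listed at 0.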

How the data were processed

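Leaf RNA of *B. distachyon* Bd21 was sequenced in 1 library. Per the labels and methods, the authors trimmed single-end reads with Trimmomatic 0.32, aligned them with TopHat2 2.0.13 and a gene annotation, and quantified transcripts with Cufflinks 2.2.1. The authors deposited FPKM values, 1 row per gene named by 1 transcript. Fragment counts are not part of them. An exact 0 may mean that Cufflinks failed to give an estimate, and a gene with it is only called listed at 0. The methods refer for the alignment to the genome version listed for the species, with annotation from Phytozome. No genome of that version was used here, and no coordinates are printed.

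Ranks, shares of genes listed lower, folds and differences of log2(FPKM + 1) were computed with Python 3.11.15, NumPy 2.4.6 and pandas 2.3.3, and figures with Matplotlib 3.10.9. The ranking code was checked on the library's own values in shuffled order, which tests the counting of ranks and nothing else. Transcript suffixes were removed and classes were joined by gene identifier. The class list was held in part, and nothing was tested on it. Neighbours were the 5 nearest listed identifiers on each side. The rule for named genes was the 5 members, their highest and lowest neighbours and the genes between *VRN1* and *PHYC*; adjacent genes, *PHYC*'s second higher neighbour and others named beside them were added after their values were seen. The planned lists of gene families, pathway genes and tissue markers were not used, since the annotation at hand was of another species. The rule for the members uses no measured value, but members and lists were chosen with earlier results of these data known.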

Additional observations from a re-analysis of the deposited data

How the results depend on the processing

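A pseudocount or a scaling cannot change the order of genes within 1 library, so the order was not at test. Shares depended on the genes ranked against. Among genes above 0 FPKM, the share listed lower was 2.20% for *VRN1*, 6.67% for *FT1*, 63.9% for *VRN2*, 82.0% for *PHYC* and 91.2% for *PPD1*. Among genes of at least 1 FPKM it was 50.1% for *VRN2*, 75.2% for *PHYC* and 87.9% for *PPD1*; *VRN1* and *FT1* are below that limit and have no value. Leaving out the 15 scaffold genes moved no share beyond its 95% Wilson interval over genes, but so few genes could hardly move one. Giving ties their lowest rank cannot change a share of genes listed lower, so that setting was no check. Within classes, *VRN1* was above 1.83% of UM genes above 0 FPKM, and *PHYC* above 71.0% of gbM genes of at least 1 FPKM. The difference of *VRN2* over *FT1* on the log2 scale was 5.27 with a pseudocount of 0.1, 6.01 with 0.01, and 3.74 after rescaling to a sum of 1000000 without the 10 genes of highest FPKM. That of *FT1* over *VRN1* was 1.16 with a pseudocount of 0.01. These changes exceed 1.5 times. The main pseudocount of 1 is larger than the levels of *FT1* and *VRN1*, so their differences shrink under it. Windows of 10 and 20 each side kept shares of neighbours within 95% Wilson intervals, which for 10 genes are too wide to be a check. Members at or above 0.1, 1 and 10 FPKM numbered 4, 3 and 2. The table lists genes and not transcripts, so the choice between transcripts was not run, nor were the gene families. Fragments per value were not computed, and 1 library gives no error.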
